A study of Mus musculus with 8 samples.

Results

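The genes described here encode the translocases that bring proteins into mitochondria, together with the genes that share their names. Every protein-coding gene whose mouse symbol begins with Timm or Tomm was taken, which gave 26 of the 31053 genes of the count table. The rule uses the symbol alone. By the known place of their products, 15 belong to the TIM side (9 at the inner membrane and 6 in the intermembrane space) and 9 to the TOM side in the outer membrane. The remaining 2 carry the name without being translocase subunits, namely Tomm34, a co-chaperone of the cytosol, and Timmdc1, an assembly factor of respiratory complex I.

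Brown adipose tissue (BAT), the heat-producing fat, was taken from 4 wild-type (WT) and 4 db/db mice for bulk RNA-seq, to learn what obesity changes in its transcriptome. All animals were males of 8 weeks, and were fasted beforehand. WT mice were C57BL6/J and db/db mice were B6.BKS(D)-Leprdb/J, whose Lepr mutation disables the leptin receptor throughout the body and makes the animals overeat and grow obese; the labels give the strain of all 8 samples as C57BL6/J. The study's methods and its list of resources name different suppliers of WT mice, so whether both genotypes came from the same source is not clear. Lepr had 0 counts in all 8 libraries, so its transcript gave no check of the genotype.

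Nearly all mitochondrial proteins are made in the cytosol and must be imported. Precursors cross the outer membrane through the TOM complex, small TIM chaperones carry hydrophobic ones across the intermembrane space, and the TIM23 and TIM22 complexes pass them into the matrix or the inner membrane. Brown adipocytes are packed with mitochondria, whose respiratory chain and uncoupling protein depend on this import.

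Libraries held 2374079 to 2615009 counts in WT and 2382722 to 3240074 in db/db, so 3 counts, taken as the floor of detection, corresponded to 0.902 to 1.33 CPM, the count scaled to a common library size. The labels name the tissue as BAT and also give the cell type as stromal vascular fraction, a preparation that leaves out adipocytes. The summed level of 7 adipocyte markers was 12073 to 21438 CPM in WT and 14990 to 19889 in db/db (Cfd called lower, Plin1 and Fabp4 higher), and that of 10 brown adipocyte markers was 8974 to 10653 in WT and 3796 to 6837 in db/db (6 of 8 tested called lower), so adipocyte RNA was abundant in these libraries. Other marker sums also differed between the genotypes: 20 skeletal muscle markers gave 487 to 1825 CPM in WT and 2656 to 13328 in db/db, highest in db/db replicate 1, with 19 of 20 called higher. Macrophage markers gave 184 to 239 CPM in WT and 895 to 1581 in db/db (12 of 13 called higher), fibroblast markers 631 to 792 and 1300 to 2843 (9 of 9 higher) and white adipocyte markers 106 to 321 and 1881 to 2895 (4 of 5 tested higher). Endothelial markers gave 439 to 495 CPM in WT and 329 to 375 in db/db (2 of 8 called lower). Lymphocyte markers stayed at or below 13.2 CPM in sum in every library. In bulk tissue, fewer cells of a type and less RNA per cell cannot be told apart.

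Of the 26 members, 23 passed the filter on low counts and 6 had an adjusted p under 0.05 in edgeR's quasi-likelihood test, all of them lower in db/db BAT: Timm9, Timm10 and Timm13 of the intermembrane space, and Timm17b, Timm23 and Timm50 of the TIM23 complex. As a share this is 26.1% of the members tested, close to the 27.7% of all 9264 genes tested that were called in either direction. By direction, 11.9% of all genes were called lower and 15.8% higher, against 26.1% and 0% of the members. At an unadjusted p under 0.05, 7 of 23 members were lower and 4 higher in edgeR, beside 17.7% and 21.2% of all genes at that threshold (38.9% either way), and DESeq2 and limma-voom also called 0 higher. All 6 calls fell on the TIM side, where 6 of 13 tested genes (46.2%) were lower, with a median log2 fold change of -0.43. Of these, the inner membrane genes alone gave 3 of 9 lower (33.3%) with a median of -0.30, and those of the intermembrane space 3 of 4 with a median of -0.62. On the TOM side 0 of 8 tested genes were called, and the median was -0.02, beside 0.01 over all genes tested.

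**Figure D1:**
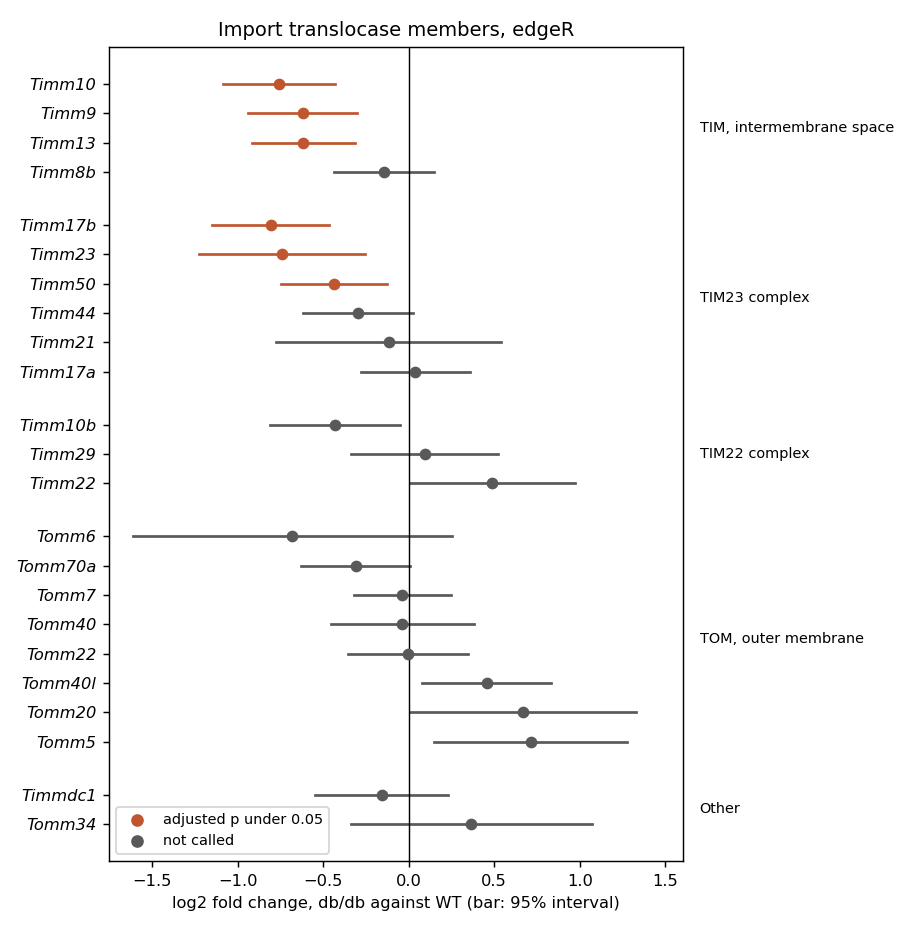
Log2 fold change of the 23 tested members, db/db against WT (n = 4 each), with 95% intervals from edgeR, grouped by complex; coloured points have an adjusted p under 0.05. The 6 coloured points lie between -0.81 and -0.44 and belong to the intermembrane space and to TIM23, while the TOM members spread on both sides of 0, from -0.68 to 0.71.

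The calls were unequally firm. Timm9, Timm10, Timm13 and Timm17b stayed lower in each of the 8 fits that left out a library and in 9 of the 10 other settings that gave each a value. The exception was a fit that added a score of skeletal muscle markers as a covariate, in which 0 of 23 members were called at an adjusted p under 0.05 (3 lower and 1 higher at an unadjusted p under 0.05, beside 7.85% and 11.4% of all genes) and the calls over all genes dropped to 650, or 7.02% (1.93% lower). The score, the mean of 20 muscle markers on a standardised log2 scale, spanned -1.35 to -0.09 over the WT and 0.01 to 1.63 over the db/db libraries without overlap, so muscle content and genotype cannot be told apart. In that fit the log2 fold changes of the 6 genes kept their sign and lay between -0.88 and -0.36. They became smaller in size for Timm10 (-0.49), Timm13 (-0.37), Timm17b (-0.76) and Timm50 (-0.36). For Timm9 (-0.67) and Timm23 (-0.88) they became larger.

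The small TIM chaperones form hexamers that shield hydrophobic precursors on their way through the intermembrane space. Timm9 and Timm10 form the main hexamer. Timm10 (ENSMUSG00000027076, chr2:84826997-84830213 on mm10) measured 76.1, 77.2, 80.8 and 66.2 CPM in WT replicates 1 to 4 and 40.0, 38.2, 44.8 and 55.1 CPM in db/db replicates 1 to 4. All 4 db/db libraries lay below all WT libraries, with db/db replicate 4 nearest to them. The means were 75.1 ± 6.24 and 44.5 ± 7.56 CPM (SD, n = 4 each), a log2 fold change of -0.76 (SE 0.15, edgeR adjusted p = 0.00123), or a level that decreased by 40.9%.

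Timm9 (ENSMUSG00000021079, chr12:71123173-71136684) gave 71.2, 89.0, 68.4 and 92.5 CPM in WT and 49.6, 54.7, 46.5 and 57.7 CPM in db/db. The groups were again separate, and the WT libraries were the more scattered ones, split into a lower and a higher pair. The log2 fold change was -0.62 (SE 0.15, edgeR adjusted p = 0.00483). Timm9 shares 1.1% of its exon bases with Tomm20l on the opposite strand, which had 0 counts in all libraries.

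Timm13, which pairs with Timm8 proteins in a second hexamer serving a smaller set of inner membrane precursors, measured 163, 171, 135 and 136 CPM in WT and 92.4, 91.6, 90.4 and 121 CPM in db/db. No db/db library reached the WT range, but db/db replicate 4 stood well above its 3 neighbours, which were nearly identical. Its log2 fold change was -0.61 (SE 0.14, edgeR adjusted p = 0.00356; ENSMUSG00000020219, chr10:80899450-80900969).

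The Timm8 partners were not called. Timm8b measured 109 to 158 CPM in WT and 121 to 125 CPM in db/db, overlapping, with a log2 fold change of -0.14 (95% interval -0.44 to 0.15, edgeR adjusted p = 0.483); 15.6% of its exon bases lie opposite Nkapd1. Timm8a1 had 0 to 13 counts per library and was not tested, and Timm8a2 had 0 counts in all 8 libraries, below the floor of 3 counts.

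**Figure D2:**
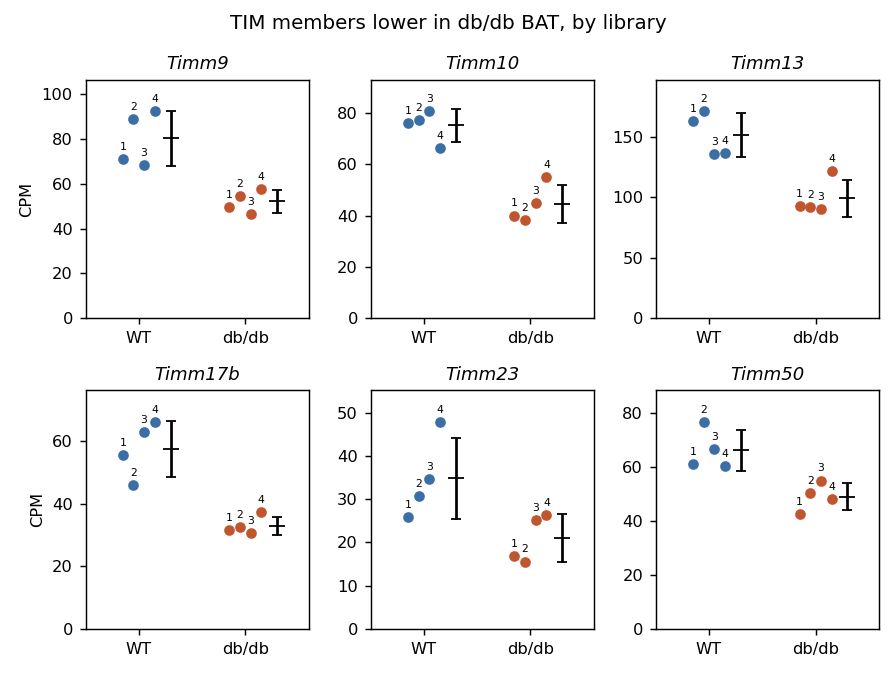
CPM of the 6 members called lower in db/db, 1 point per library labelled with its replicate number, with mean and SD (n = 4) beside the points; each axis starts at 0. The genotypes are separate for every gene but Timm23, where db/db replicate 4 (26.4 CPM) lies just above WT replicate 1 (25.9 CPM).

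The TIM23 complex takes presequence-bearing precursors into the matrix or the inner membrane, and 3 of its 6 tested subunits were lower, with a median of -0.37 over all 6. Timm50, the receptor that meets precursors emerging from TOM, measured 61.1, 76.8, 66.5 and 60.3 CPM in WT and 42.7, 50.3, 55.0 and 48.0 CPM in db/db. The highest db/db library came near the lowest WT ones without reaching them. The log2 fold change was -0.44 (SE 0.15, edgeR adjusted p = 0.0355; ENSMUSG00000003438, chr7:28305516-28312072). Timm50 was the least firm of the 6, since the adjusted p passed 0.05 in 5 of the 8 fits that left out a library (without WT replicate 2 or 3, or without db/db replicate 1, 2 or 4; up to 0.109) and when at least 10 counts were required in every library.

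Timm23, which forms the complex together with Timm17 proteins, measured 25.9, 30.8, 34.6 and 48.0 CPM in WT and 16.8, 15.6, 25.3 and 26.4 CPM in db/db. Both groups were widely spread, and 3 of the 4 db/db libraries lay below all WT libraries. The log2 fold change was -0.74 (SE 0.23, edgeR adjusted p = 0.0230; ENSMUSG00000013701, chr14:32180162-32201898), and the adjusted p rose to at most 0.100 without WT replicate 4, db/db replicate 1 or db/db replicate 2, where the call was lost. Timm23 has 6 near-identical copies in the genome (at least 95% identity over more than 150 bases), among them the protein-coding Gm10273, which had 0 counts in all libraries. How reads matching several of these copies were counted is not given in the sources used here, so the level of Timm23 is uncertain.

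Timm17b and Timm17a are paralogues that take the same position in alternative forms of TIM23. Timm17b (ENSMUSG00000031158, chrX:7899357-7908351) measured 55.4, 46.0, 62.8 and 66.2 CPM in WT and 31.6, 32.5, 30.6 and 37.2 CPM in db/db. The db/db libraries were tightly grouped and all lay below the lowest WT library, with a log2 fold change of -0.81 (SE 0.16, edgeR adjusted p = 0.00114), the most negative among the 23 tested members. Timm17a (chr1:135295213-135313778) measured 92.3, 85.7, 118 and 107 CPM in WT and 82.4, 120, 108 and 103 CPM in db/db. Its groups covered nearly the same range, and the log2 fold change was 0.04 (95% interval -0.28 to 0.36, edgeR adjusted p = 0.877).

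Since the paralogues were counted in the same libraries, their ratio does not depend on the scaling. There were 1.66, 1.86, 1.87 and 1.62 counts of Timm17a per count of Timm17b in WT and 2.61, 3.71, 3.54 and 2.78 in db/db. Every db/db ratio exceeded every WT ratio, and the means were 1.75 ± 0.13 and 3.16 ± 0.54 (SD, n = 4 each). The log2 ratio was higher by 0.84 in db/db (exact two-sided permutation p = 0.0286, the smallest that 4 against 4 allows, and 0.0571 after adjustment over the 2 paralogue pairs compared, which misses 0.05). The ratio counts reads and is not corrected for transcript length, so it does not say which paralogue had more molecules. Each of the paralogues has 1 near-identical processed pseudogene, neither of which is a row of the count table, and 4.6% of the exon bases of Timm17b lie opposite Gm10491.

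**Figure D3:**
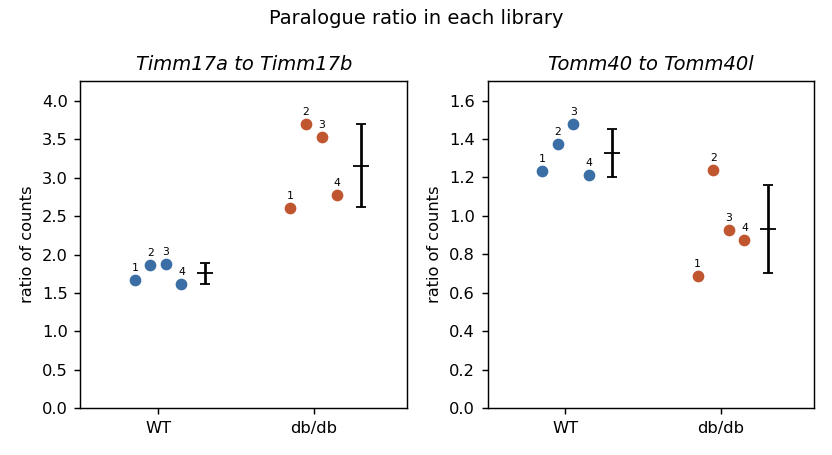
Ratio of counts in each library for the paralogue pairs Timm17a to Timm17b (left) and Tomm40 to Tomm40l (right), with mean and SD (n = 4). The left-hand ratio spans 1.62 to 1.87 in WT and 2.61 to 3.71 in db/db, while the right-hand ranges meet, at 1.21 to 1.48 and 0.69 to 1.24.

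The upstream sequences of the paralogues, which share no promoter, are shown because Timm17b was called and Timm17a was not, and those of Timm10 and Timm23 stand beside them as members that were lower. Each is the 250 bases before the RefSeq transcript start on GRCm38.p6, 5′ to 3′ on the strand of the gene: Timm17b from chrX:7899086-7899335 (plus strand), Timm17a from chr1:135313738-135313987 (minus strand), Timm10 from chr2:84826771-84827020 (plus strand) and Timm23 from chr14:32201892-32202141 (minus strand). Capitals mark a match on either strand to the ETS core CCGGAAG or the CCAAT box, the only ones of the 7 motifs searched that occur in these 4 stretches.
Timm17b: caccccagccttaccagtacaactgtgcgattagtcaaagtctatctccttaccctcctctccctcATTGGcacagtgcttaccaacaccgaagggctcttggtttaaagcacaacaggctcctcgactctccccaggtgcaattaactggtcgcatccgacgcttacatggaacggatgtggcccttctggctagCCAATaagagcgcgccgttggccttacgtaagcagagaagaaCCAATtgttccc
Timm17a: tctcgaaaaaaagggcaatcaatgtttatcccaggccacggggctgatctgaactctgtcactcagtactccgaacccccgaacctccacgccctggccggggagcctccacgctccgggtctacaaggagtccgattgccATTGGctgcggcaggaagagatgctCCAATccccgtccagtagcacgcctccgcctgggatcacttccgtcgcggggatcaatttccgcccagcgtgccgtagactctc
Timm10: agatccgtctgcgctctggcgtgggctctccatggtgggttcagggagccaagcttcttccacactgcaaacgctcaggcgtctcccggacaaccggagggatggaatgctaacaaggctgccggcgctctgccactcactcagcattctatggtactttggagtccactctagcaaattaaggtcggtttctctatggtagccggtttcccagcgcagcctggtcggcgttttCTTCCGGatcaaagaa
Timm23: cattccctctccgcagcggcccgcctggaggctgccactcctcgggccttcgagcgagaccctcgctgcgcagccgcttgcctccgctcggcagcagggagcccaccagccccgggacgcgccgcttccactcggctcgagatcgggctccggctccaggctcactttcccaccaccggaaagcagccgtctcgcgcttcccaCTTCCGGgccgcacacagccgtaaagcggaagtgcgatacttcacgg

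RefSeq gave 25 promoter windows for 23 of the 26 members (not for Tomm40l, Tomm7 and Timm21), each of 300 bases, 250 before and 50 after the start. These include Timm8a1, Timm8a2 and Tomm20l, which were not tested, whereas the shares set beside them cover tested genes only. The ETS core stood in 11 of the 25 windows (44.0%) and in 18.9% of the 9446 windows of genes tested. The 11 include the untested Timm8a2 and both windows of Tomm34, which overlap and share a site. Within the members the ETS core did not follow the calls, being present in 2 of the 6 windows of called genes (Timm10 and Timm23), in 3 of 7 of the TIM genes not called and in 2 of 6 of the tested TOM genes. Timm17a and Timm17b both held the CCAAT box (7 of 25 member windows, 36.9% of the windows of tested genes) and neither held the ETS core. The E-box CACGTG was found in 5 of 25 windows (10.2% of windows of tested genes), with Timm9 and Timm10 and the untested Timm8a1 and Tomm20l among them. The NRF1 core GCGCATGC and the YY1 core AAGATGGC were found in 1 window each (5.31% and 4.82% of windows of tested genes), that of Timm13 and that of Timm50. The motif AAGGTCA, bound by ERR proteins, was found in 3 windows (3.18%), overlapping the ETS core in that of Timm23, and the TATA box TATAAA in 2 windows (7.01%). A match is a run of letters and was not tested as a binding site.

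The other TIM23 subunits were not called. Timm44, which anchors the import motor to the channel, measured 65.4 to 82.3 CPM in WT and 48.7 to 68.1 CPM in db/db, with a log2 fold change of -0.30 (95% interval -0.62 to 0.02, edgeR adjusted p = 0.160). Timm21, which links TIM23 to the outer membrane and the respiratory chain, was low, at 8.86 to 11.5 CPM in WT and 5.21 to 14.6 CPM in db/db (log2 fold change -0.12, 95% interval -0.78 to 0.54).

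In the TIM22 complex, which inserts metabolite carriers into the inner membrane, 0 of 3 genes were called. Timm22, its channel, measured 11.6 to 19.1 CPM in WT and 16.0 to 23.9 CPM in db/db, with a log2 fold change of 0.49 (95% interval 0.01 to 0.97, edgeR adjusted p = 0.121). Timm10b measured 56.9 to 88.6 CPM in WT and 39.0 to 68.8 CPM in db/db (log2 fold change -0.43, 95% interval -0.81 to -0.05, edgeR adjusted p = 0.0841), and was called lower when every gene with a count was tested, or without WT replicate 4 or db/db replicate 4. Timm29 averaged 21.5 ± 4.56 CPM in WT and 22.9 ± 1.56 CPM in db/db (SD, n = 4 each; log2 fold change 0.09). At unadjusted p under 0.05, Timm10b was the further member counted as lower and Timm22 the 1 TIM gene counted as higher.

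On the outer membrane, the TOM complex is the entry gate: Tomm20, Tomm22 and Tomm70a recognise precursors, Tomm40 forms the channel, and Tomm5, Tomm6 and Tomm7 are small subunits that hold it together. No TOM gene passed the test (0 of 8 in edgeR, in DESeq2 and in limma-voom), and at an unadjusted p under 0.05 edgeR counted 3 of 8 higher and 0 lower, beside 21.2% and 17.7% of all genes. Tomm22 measured 39.3 to 56.6 CPM in WT and 41.4 to 54.5 CPM in db/db, a log2 fold change of -0.01 with a 95% interval of -0.36 to 0.35. Tomm7 measured 456 to 529 CPM in WT and 371 to 524 CPM in db/db, a log2 fold change of -0.04 with an interval of -0.32 to 0.24. Neither interval reaches a log2 change of the size seen in Timm9 (-0.62), in either direction, but both genes have near-identical processed pseudogenes (1 for Tomm22 and 2 for Tomm7) that are no rows of the count table.

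Tomm40 measured 34.0, 37.1, 27.8 and 34.0 CPM in WT and 23.8, 43.3, 34.6 and 27.9 CPM in db/db. The db/db libraries spread to both sides of the WT range, and the log2 fold change was -0.04 (95% interval -0.46 to 0.38). Its paralogue Tomm40l measured 27.5, 27.0, 18.8 and 28.0 CPM in WT and 34.6, 35.0, 37.2 and 32.0 CPM in db/db. Every db/db library of Tomm40l exceeded every WT library, yet the log2 fold change of 0.46 missed the threshold (SE 0.18, edgeR adjusted p = 0.0680). Over all genes tested, 28.1% had libraries of the genotypes that did not overlap, and among the members this held for 6 of 23, namely Tomm40l and all called genes except Timm23. Of the exon bases of Tomm40l, 64.3% lie opposite Nr1i3, and the sources used here do not say if reads were assigned by strand, so its level is uncertain. The log2 ratio of Tomm40 to Tomm40l differed by -0.54 between db/db and WT (exact two-sided permutation p = 0.0857, adjusted over the 2 pairs 0.0857).

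Tomm5 measured 8.90, 10.6, 8.27 and 8.91 CPM in WT and 12.6, 19.1, 10.2 and 17.9 CPM in db/db. Only db/db replicate 3 fell within the WT range, and the log2 fold change was 0.71 (SE 0.27, edgeR adjusted p = 0.0554). Tomm20 measured 4.86, 8.86, 9.39 and 5.09 CPM in WT and 13.5, 12.4, 7.53 and 11.2 CPM in db/db, where again db/db replicate 3 was the single overlapping library (log2 fold change 0.67, SE 0.31, edgeR adjusted p = 0.123). Both are low in counts and have near-identical processed pseudogenes, 1 for Tomm5 and 4 for Tomm20. Without db/db replicate 3, Tomm5 was called higher (edgeR adjusted p = 0.0295, in a range of 0.0295 to 0.165 over the fits leaving out a library), and with at least 10 counts required in every library Tomm5 and Tomm40l were called higher.

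Tomm70a, the receptor for carrier precursors, measured 72.8 to 100 CPM in WT and 59.0 to 78.9 CPM in db/db (log2 fold change -0.31, 95% interval -0.63 to 0.01, edgeR adjusted p = 0.140). Tomm6 had few counts, with 3.40 to 10.5 CPM in WT and 1.86 to 6.68 CPM in db/db (log2 fold change -0.68, 95% interval -1.61 to 0.25), and shares 76.0% of its exon bases with Gm21981 on the same strand. Tomm20l, a paralogue of Tomm20, had 0 counts in all 8 libraries. Outside the translocases, Tomm34 measured 6.47 to 13.5 CPM in WT and 7.09 to 15.9 CPM in db/db (log2 fold change 0.37, 95% interval -0.34 to 1.07), and Timmdc1 23.3 to 29.3 CPM in WT and 20.8 to 29.3 CPM in db/db (log2 fold change -0.16, 95% interval -0.55 to 0.23).

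**Figure D4:**
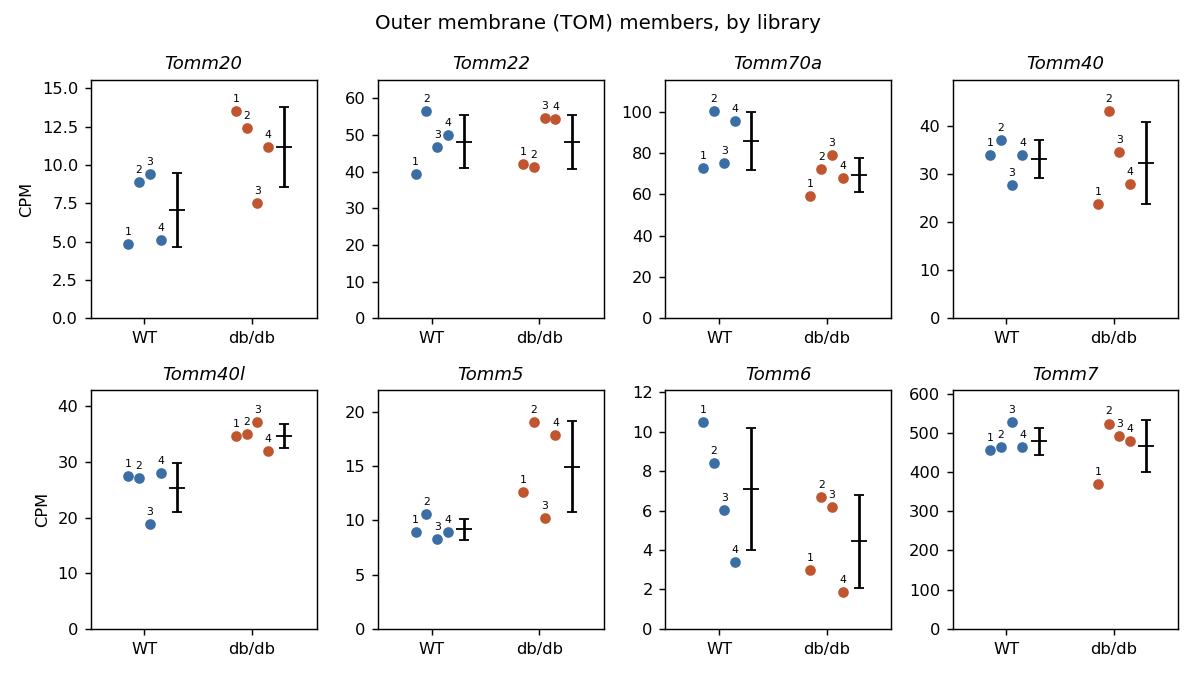
CPM of the 8 tested TOM members, 1 point per library labelled with its replicate number, with mean and SD (n = 4); each axis starts at 0. The genotypes overlap for 7 of the 8 genes, and for Tomm40l the db/db libraries (32.0 to 37.2 CPM) lie above the WT libraries (18.8 to 28.0 CPM).

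To set the TIM against the TOM side within each animal, the median deviation of a group of genes from their WT means was taken in each library, on the log2 scale. For the 13 tested TIM genes it was -0.09, 0.00, 0.07 and 0.19 in WT and -0.54, -0.38, -0.26 and -0.31 in db/db. For the 8 tested TOM genes it was -0.05, 0.22, -0.12 and 0.00 in WT and -0.27, 0.26, 0.10 and 0.09 in db/db. The TIM position was below all WT libraries in every db/db library, while the TOM positions overlapped. The difference of TIM minus TOM was -0.05, -0.22, 0.19 and 0.18 in WT and -0.27, -0.64, -0.36 and -0.41 in db/db. It was lower in every db/db library than in any WT library. For the 9 inner membrane genes alone, without the chaperones of the intermembrane space, the position was -0.09, -0.01, 0.07 and 0.19 in WT and -0.40, -0.35, -0.23 and -0.10 in db/db, and its difference from TOM was -0.05, -0.23, 0.19 and 0.18 in WT and -0.13, -0.60, -0.33 and -0.20 in db/db. With these genes alone the differences from TOM overlapped between the genotypes, since WT replicate 2 lay below db/db replicates 1 and 4. No test was made of these group positions or of their differences.

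These positions can be read beside the muscle score of each library. Within db/db, replicate 1 had the highest muscle score (1.63) and the lowest TIM and TOM positions (-0.54 and -0.27). Replicate 3, with the next highest score (0.88), had the highest TIM position of the db/db libraries (-0.26), and replicate 2, with 0.37, had -0.38. Replicate 4, with a score of 0.01, had a TIM position of -0.31. In WT replicates 1 to 4 the scores were -1.35, -0.59, -0.88 and -0.09, and the TIM positions -0.09, 0.00, 0.07 and 0.19. Without db/db replicate 1, 4 of 23 members were called, all lower (Timm9, Timm10, Timm13 and Timm17b), and the same 4 were called without db/db replicate 2. Over all genes tested, 10.3% were called lower without replicate 1 and 10.6% without replicate 2 (24% and 25.2% either way). The part of the muscle markers, and of those of macrophages, fibroblasts and brown adipocytes, in the members' differences was not tested. The fit with the muscle score could not test it, because the scores of the genotypes did not overlap.

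Genes of the respiratory chain and of the mitochondrial ribosome give the setting. Of 81 tested nuclear-encoded OXPHOS subunits, 40 were lower (49.4%) and 4 higher (4.94%), with a median log2 fold change of -0.38. Of 75 tested mitochondrial ribosomal proteins, 16 were lower (21.3%) and 1 higher (1.33%), with a median of -0.18. Over all genes tested 11.9% were lower, 15.8% higher and 27.7% called either way, so the 22.7% of ribosomal proteins called either way was below the share over all genes and the 54.3% of OXPHOS subunits above it. Beside the -0.43 of the TIM genes and the -0.02 of the TOM genes, these medians are a description, since the groups were not tested against each other. The 13 genes of mitochondrial DNA held 30.7 to 37.6% of the counts of a library, and scaling without them called the same 6 members.

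**Figure D5:**
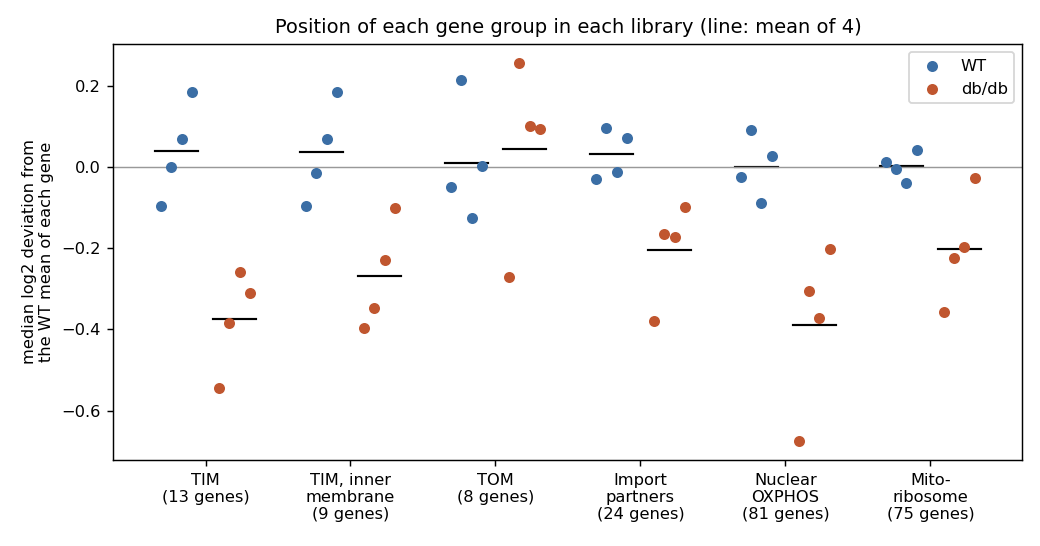
Median log2 deviation from the WT mean over the genes of each group, 1 point per library and a line at the mean of 4, for TIM, its inner membrane genes, TOM, import partners, nuclear OXPHOS subunits and mitochondrial ribosomal proteins. TIM spans -0.09 to 0.19 in WT and -0.54 to -0.26 in db/db, its inner membrane genes reach -0.40 to -0.10 in db/db, and TOM spans -0.12 to 0.22 and -0.27 to 0.26. Import partners and nuclear OXPHOS subunits also lie lower in every db/db library than in any WT library.

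Import also needs motors, peptidases and assembly factors that do not carry the Timm or Tomm name. Of 25 such partner genes 24 were tested, and 7 (29.2%) were called, near the 27.7% of all genes called in either direction. By direction, 7 were lower and 0 higher in db/db, beside 11.9% and 15.8% of all genes. DESeq2 and limma-voom also called 0 higher. At an unadjusted p under 0.05 in edgeR, 8 partners were lower and 0 higher, beside 17.7% and 21.2% of all genes. Immp2l, a subunit of the inner membrane peptidase, measured 92.7, 108, 115 and 95.9 CPM in WT and 42.7, 42.6, 48.3 and 58.0 CPM in db/db, with a log2 fold change of -1.11 (SE 0.15, edgeR adjusted p = 2.77e-05). Gfer, the sulfhydryl oxidase of the disulfide relay in the intermembrane space, measured 39.7, 35.5, 55.2 and 45.4 CPM in WT and 25.3, 19.7, 25.3 and 27.5 CPM in db/db (edgeR log2 fold change -0.85 with SE 0.19, adjusted p = 0.0022).

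Hspa9, the mitochondrial Hsp70 that drives the TIM23 motor, measured 516, 672, 552 and 639 CPM in WT and 311, 458, 393 and 372 CPM in db/db (edgeR log2 fold change -0.63 with SE 0.14, adjusted p = 0.00295). In all 3 of these genes, chosen for the lowest adjusted p, every db/db library lay below every WT library. The other 4 lower partners were Pam16, Dnajc15 and Grpel1 of the same motor and Hspe1, a co-chaperonin of the matrix. The genotypes did not overlap in 6 of the 24 tested partners, beside 28.1% of all genes. Among the partners called, Grpel1 overlapped. With the muscle score in the fit, 1 of the 24 partners was called, in the lower direction, beside 1.93% of all genes lower and 7.02% either way. The 17 not called include Samm50, Mtx1 and Mtx2 of the outer membrane (Mtx2 with a log2 fold change of -0.48, edgeR adjusted p = 0.0952, the additional partner lower at an unadjusted p under 0.05), Chchd4, which works with Gfer, and the processing peptidase subunits Pmpca and Pmpcb.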

How the data were processed

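Gene level raw counts of 8 BAT libraries (4 WT, 4 db/db) were used as deposited. Per the study's methods, the authors had mRNA libraries made by a commercial service and read single-end. They used bbduk for trimming, STAR for alignment to mm10, HTSeq-count for counting and DESeq2 for differential expression. The submitters' processing notes name Trimmomatic, HISAT2 and DESeq2 with GRCm38/mm10, and the study's list of resources also names Trimmomatic and HISAT2. Which of the aligners made the counts, whether counting used the strand and whether molecular identifiers were collapsed are not given in the sources used here, so floors of detection cover counting error only. The authors also deposited log2 values, which equalled log2 of the count times a constant of each library plus 1 and served only as an alternative. A sample sheet was not used.

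Genotype and replicate number came from the sample titles. The labels' numbers concern different animals and did not pair the samples, as the correlation of deviations between same-numbered libraries was between -0.08 and 0.05. Ensembl identifiers were looked up in GENCODE M21 (31011 of 31053), which gave names, positions and overlaps; the unmatched 42 held no counts. Near-identical copies were searched among the GENCODE transcripts with BLAST. Genes were filtered by filterByExpr (minimum count 10, minimum total 15), scaled by TMM and tested by glmQLFTest of edgeR 4.0.16 (limma 3.58.1, R 4.3.3) with a term for genotype alone and Benjamini-Hochberg adjustment over the 9264 genes tested. A gene was called at an adjusted p under 0.05. CPM were computed from the total over tested genes and the TMM factor, and standard errors from the F statistic. DESeq2 1.42.0 was an alternative. The fit was tested on simulated counts.

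The rule for the members reads no measured value, but the members, like the lists of partner and marker genes, were chosen with earlier results of these data known. Every member is described; members called are given in every library, as are the paralogue pairs Timm17a/Timm17b and Tomm40/Tomm40l, and the others by their range (further per-library values were added for Tomm5 and Tomm20 after their values were seen). Called partner genes are named, with values for the 3 of lowest adjusted p. Alternatives were limma-voom, DESeq2, 3 other scalings, 2 other filters, the log2 values with limma, the replicate block, the skeletal muscle score, classes by symbol prefix and leaving out each library. Figures were drawn with matplotlib.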

Additional observations from a re-analysis of the deposited data

Results flagged for a closer look

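In 46 sets of 4 libraries (23 tested members in each genotype), the gap of the extreme library was examined by Dixon's criterion, for which chance gives about 1 in 20, or 2.3 sets. The 3 sets that exceeded it are these. Timm13 in db/db replicate 4 measured 121 CPM, beside 90.4 to 92.4 CPM in the other db/db libraries. Tomm40l in WT replicate 3 measured 18.8 CPM, beside 27.0 to 28.0 CPM in the other WT libraries. Tomm7 in WT replicate 3 measured 529 CPM, beside 456 to 465 CPM in the other WT libraries.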

How the results depend on the processing

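The 6 lower members were the same 6 genes in DESeq2, limma-voom, RLE and upper quartile scaling, TMM without the genes of mitochondrial DNA, the deposited log2 values with limma and the replicate block. With the skeletal muscle score added, 0 members, 0 TIM genes and 1 partner gene were called, 0 of them members called lower, the calls over all genes fell to 650 (7.02%) and the TOM median moved to 0.19. With at least 10 counts in every library, 2 members, both TOM genes, were called higher; the cause was not tested. In the fits leaving out 1 library, 2236 to 2483 genes, 4 to 7 members (4 to 6 lower, 0 to 1 higher), 4 to 6 TIM genes, 0 to 1 TOM genes and 5 to 7 partner genes were called; the TIM median ran from -0.49 to -0.35 and the TOM median from -0.07 to 0.07. The 1 TOM call was Tomm5 without db/db replicate 3.

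Over the members, 211 of 230 comparisons with other settings kept direction and call, 7 lost a call, 3 gained one and 9 changed sign; in 184 comparisons leaving out a library, 160 kept both, 8 lost and 3 gained a call and 13 changed sign. All sign changes were in members not called on either side. With the muscle score, the log2 fold change became 0.013 for Timm10b, -0.16 for Timm29, 0.18 for Tomm40, 0.031 for Tomm6 and 0.20 for Tomm7; with at least 10 counts in every library, 0.044 for Tomm22, 0.014 for Tomm40 and 0.012 for Tomm7; with every gene that had a count, -0.0062 for Timm17a. The fits leaving out a library ran from -0.043 to 0.13 for Timm17a, -0.45 to 0.070 for Timm21, -0.068 to 0.17 for Timm29, -0.11 to 0.069 for Tomm22, -0.22 to 0.086 for Tomm40 and -0.099 to 0.052 for Tomm7. The causes were not tested. The replicate block, which assumes a pairing the numbers do not show, gave 2557 genes and the same 6 members. The sign of the TOM median, near 0, changed with the strict filter (0.04). Depth limits Timm8a1, Tomm6, Tomm20, Timm21, Tomm34 and Tomm5, the members with counts that have the fewest.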
